A study of Mus musculus with 2 samples.

Results

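Occupancy of 9 genes of the core Hedgehog pathway by ARID4B was read from 1 list of enriched chromatin intervals in newborn mouse testis. The 9 genes were the ligands Dhh, Shh and Ihh, the receptor Ptch1, the signal transducer Smo, the inhibitor Sufu and the transcription factors Gli1, Gli2 and Gli3, out of 21887 protein-coding genes on the assembled chromosomes. They, like the other gene lists below, were chosen by name with earlier results of these data known. Every interval that overlapped a gene's record or came within 50 kb of it was taken. This gave 21 of the 6632 intervals in the list. ARID4B is an AT-rich interaction domain protein that works with the SIN3-histone deacetylase complex. The ChIP library came from a pool of 108 testes of wild type mice of a hybrid C57BL6/J and 129/SvEv strain, taken at postnatal day 1.5, and 1 input library of the same strain, genotype, age and tissue was its control. With 1 ChIP library and 1 pool of animals no value below has a replicate, and no test between genes was made. No interval can be assigned to a cell type, because whole testes were used, and few cells with strong binding cannot be told apart from many cells with weak binding.

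Hedgehog ligands are secreted proteins that bind Ptch1, a membrane receptor that keeps Smo inactive until a ligand is bound. Active Smo, which works at the primary cilium, frees the Gli factors from Sufu. Gli2 then acts mainly as an activator and Gli3 mainly as a repressor when the signal is absent, while Gli1 is an activator that is itself switched on by the pathway, as is Ptch1. In the mouse testis Sertoli cells make the ligand Dhh, and the receiving cells are the Ptch1-expressing precursors of Leydig and peritubular cells. Shh and Ihh are better known from the neural tube and limb and from growing cartilage.

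Each interval carried a score given by the authors, whose scale and direction no source states. A higher score was taken here as stronger evidence for enrichment, and ranks and the words strong and weak rest on that reading, which was not tested. Scores in the whole list ran from 70.02 to 1760.61 with a median of 124.98, and interval widths had a median of 1084 bp. Depth of the libraries is unknown, so the weakest binding that could have been listed is unknown too. Of the marker genes looked up, all 6 of Sertoli cells, Dhh among them, had an interval in the record or within 1 kb, as did 1 of 6 of Leydig cells, 1 of 4 of germ cells, 1 of 3 of peritubular myoid and 1 of 3 of endothelial cells, beside 30.7% of all protein-coding genes. An interval is no measure of expression, so these counts do not check which cells were present.

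ARID4B intervals lay at or within 1 kb of the start of most of these genes, several with low scores. An interval overlapped the record of 7 of the 9, all but Shh and Sufu, and the same 7 were found when 1 kb either side was allowed. Among all protein-coding genes 30.7% had an interval in the record or within 1 kb. Starts of transcription were known for 7 of the 9 (all but Shh and Gli1) from a RefSeq table. An interval came within 1 kb of the start at 6 of these 7, with Sufu the exception, against 28.0% of the 17492 protein-coding genes in that table. The interval covered the start itself at 4 of the 7, namely Dhh, Ptch1, Gli2 and Gli3, against 24.3% of all genes in the table. Of the intervals within 1 kb of a start, those at Dhh (100.06), Gli2 (105.1) and Ihh (70.56) scored below the list median of 124.98. Those at Ptch1, Smo and Gli3 scored above it.

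The 250 bases before the start are shown for 5 of the genes, to set the strongest site (Ptch1), a repressor gene with an interval (Gli3), the ligand of the testis (Dhh) and a gene with an interval just past its start (Smo) and one with none (Sufu) beside each other. The sequences are RefSeq, build GRCm38, and lie at chr13:63565736-63565985 (minus strand), chr13:15463473-15463722 (plus strand), chr15:98898541-98898790 (minus strand), chr6:29735247-29735496 (plus strand) and chr19:46396646-46396895 (plus strand) in that order. They are written 5′ to 3′ along the gene, and capitals mark each CpG pair, a C followed by a G.
Ptch1: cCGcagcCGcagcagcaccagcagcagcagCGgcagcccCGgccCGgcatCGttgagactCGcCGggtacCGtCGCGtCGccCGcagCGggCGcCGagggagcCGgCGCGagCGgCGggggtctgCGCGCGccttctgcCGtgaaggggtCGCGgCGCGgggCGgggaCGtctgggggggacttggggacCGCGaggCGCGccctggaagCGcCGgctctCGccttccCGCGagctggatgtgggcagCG
Gli3: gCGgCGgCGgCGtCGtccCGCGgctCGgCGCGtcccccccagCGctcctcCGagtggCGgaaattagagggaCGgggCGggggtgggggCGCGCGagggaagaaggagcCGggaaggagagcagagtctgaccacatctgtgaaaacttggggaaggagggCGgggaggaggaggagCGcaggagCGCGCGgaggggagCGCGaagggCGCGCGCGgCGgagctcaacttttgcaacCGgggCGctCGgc
Dhh: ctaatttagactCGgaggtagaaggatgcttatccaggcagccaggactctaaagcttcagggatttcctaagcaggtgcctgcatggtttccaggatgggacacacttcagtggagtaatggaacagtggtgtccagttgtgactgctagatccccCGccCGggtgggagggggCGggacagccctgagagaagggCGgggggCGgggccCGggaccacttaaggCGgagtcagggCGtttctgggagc
Smo: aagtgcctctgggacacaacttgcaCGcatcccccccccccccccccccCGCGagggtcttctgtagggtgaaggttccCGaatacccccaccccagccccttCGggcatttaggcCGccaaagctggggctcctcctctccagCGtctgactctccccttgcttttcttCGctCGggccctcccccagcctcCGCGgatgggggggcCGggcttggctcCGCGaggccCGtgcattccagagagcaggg
Sufu: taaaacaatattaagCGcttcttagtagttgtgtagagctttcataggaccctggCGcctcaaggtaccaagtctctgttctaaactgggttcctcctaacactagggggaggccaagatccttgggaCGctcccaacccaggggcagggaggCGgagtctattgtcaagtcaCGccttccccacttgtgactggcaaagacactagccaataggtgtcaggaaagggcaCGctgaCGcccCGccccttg
The capitals are dense in Ptch1, with 41 CpG pairs, and in Gli3, with 34, and sparse in Smo, with 15, Dhh, with 9, and Sufu, with 8. All 250 bases shown lay inside an interval at Ptch1, 62 at Dhh and 55 at Gli3, and no base shown did at Smo or Sufu.

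**Figure D1:**
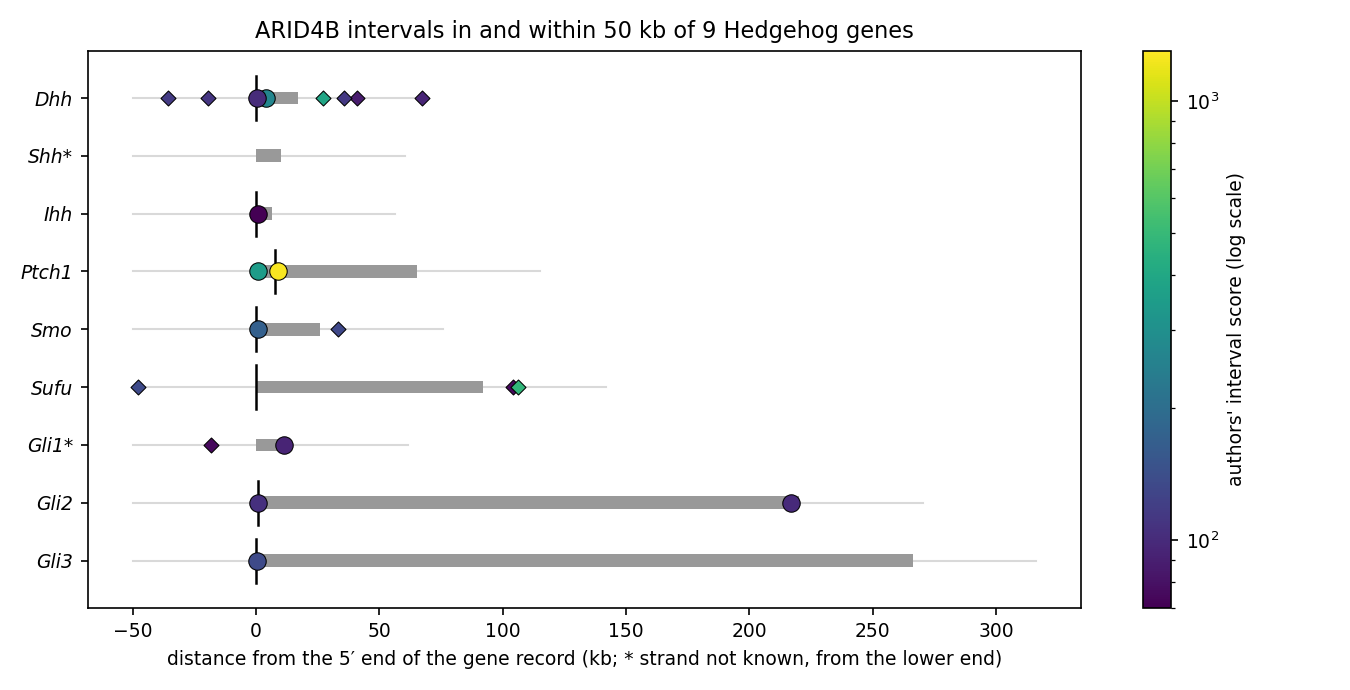
Map of the 9 genes with their ARID4B intervals. The horizontal axis is the distance in kb from the 5′ end of the gene record (for Shh and Gli1, marked with an asterisk, from the lower end), grey bars are gene records, thin lines the 50 kb either side, and vertical black ticks the annotated starts of transcription. Circles are intervals that overlap the record, diamonds those outside it, and colour gives the authors' score on a log scale. The highest score, 1261.13, is at the Ptch1 start, Dhh has 8 intervals of which 2 overlap its record, and Shh has none.

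Of the ligand genes, Dhh had intervals in its record and more at neighbouring genes, Ihh had a single weak one, and Shh had none within 50 kb. Dhh (record chr15:98881615-98898562) had 2 intervals inside its record. The first, chr15:98897737-98898602 with a score of 100.06, covered the start of transcription, with its midpoint 371 bp into the gene. The second, chr15:98893673-98895274 with a score of 268.02, had its midpoint 4067 bp into the gene. The inner one ranked higher, at 732 of the list, while the one at the start stood at rank 4466, in the lower part of the list.

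In all, 8 intervals lay in or within 50 kb of Dhh, and 0.311% of protein-coding genes had that many or more. The region is dense in genes, with 4 other protein-coding genes in reach, and the 6 intervals outside the Dhh record lay in or at those genes or at Prkag1. The strongest of the 8, chr15:98870545-98872545 with a score of 391.86, covered an annotated start of Kmt2d, which encodes a histone H3 lysine 4 methyltransferase. Weaker intervals, with scores of 87.45 and 114.2, lay inside the Kmt2d record over 1 kb from any annotated start or protein-coding gene end. Prkag1, a subunit gene of the AMP-activated protein kinase, had an interval scoring 95.03, and the tubulin gene Tuba1b had one scoring 116.97. The interval scoring 109.65 covered an end of Lmbr1l and a start of the long noncoding RNA gene Gm41396. The count of 8 thus comes mostly from neighbours of Dhh, and 2 of the 8 had a Dhh end as the nearest protein-coding gene end.

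Ihh (chr1:74945315-74951672) had 1 interval, chr1:74950641-74951410, and its score of 70.56 was close to the lowest of the list, at rank 6577. It began 262 bp inside the gene from the start and did not cover it. Shh (chr5:28456840-28467101) had no interval within 50 kb. The nearest lay 139.0 kb from its record, at chr5:28316381-28317846 with a score of 295.19, and touched an end of the neighbouring gene Rbm33.

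Ptch1, the Hedgehog receptor gene, held the strongest signal of the 9 and one of the strongest of the list. Its record, chr13:63508328-63573460, held 2 intervals and no other interval lay within 50 kb. The stronger, chr13:63562912-63566458, had a score of 1261.13, rank 6 of 6632, and a width of 3547 bp, the rank by width being 22. It covered the annotated start of transcription at position 63565735, with its midpoint 1050 bp into the gene. This interval lies 7002 bp from the outer end of the record, because the record reaches 7725 bp upstream of that start, so by the outer ends alone it would be counted as inside the gene body. The other interval, chr13:63572130-63573520, with a score of 347.75 at rank 359, covered that upstream outer end. A gap of 5671 bp separated the pair. The annotated start nearest to the second interval was that of LOC102632415, 1963 bp away. The record itself reaches that upstream outer end, but only 1 start of Ptch1 was among the RefSeq starts used here. The nearest-start distance above therefore leaves out any Ptch1 start at that end.

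Having more than 1 interval was uncommon. Ptch1, Dhh and Gli2 had 2 each in the record or within 1 kb, 3 of the 9 genes, and 3.28% of protein-coding genes had 2 or more. This share takes no account of record length, and the records of Gli2, Ptch1 and Dhh are 220.3, 65.1 and 16.9 kb long. By the likeness rule used (the same number of intervals in the record or within 1 kb, then the smallest difference in log2 best score), the genes most like Ptch1 among 613 with exactly 2 intervals were Smg6, Zfp703 and Zfp36l2, over this 1 library. Their best scores were 1584.47, 922.31 and 1760.61, absolute log2 differences from Ptch1 of 0.33, 0.45 and 0.48. Their second intervals scored 139.18, 164.98 and 140.49, each lower than the second interval of Ptch1. Intervals were assigned to these 3 genes by position alone, and whether they lie at a neighbouring gene was not looked up.

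**Figure D2:**
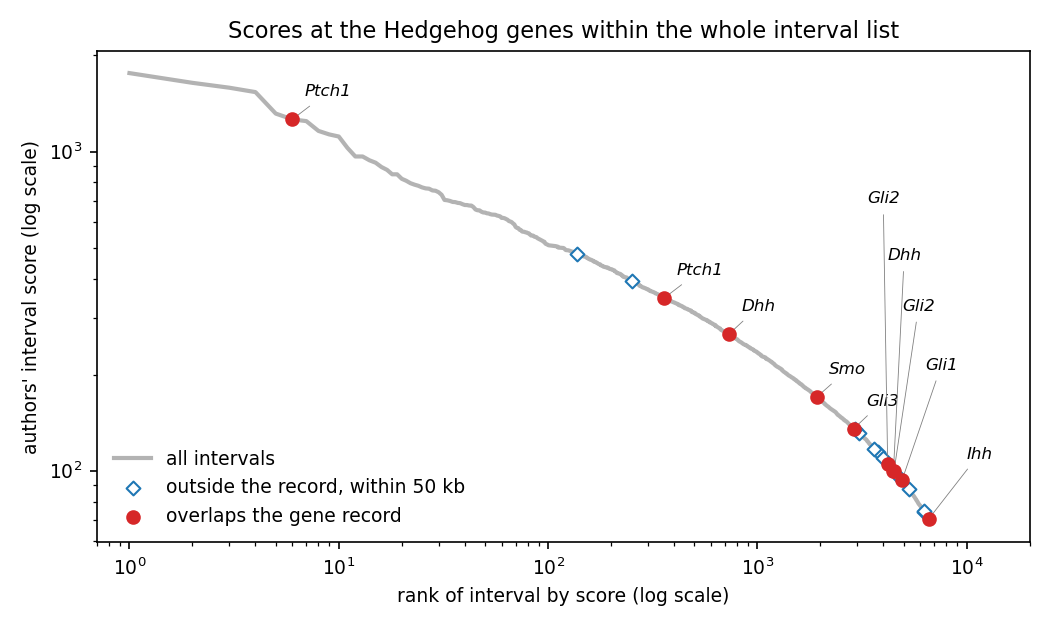
Score of every interval against its rank, both on log scales. The grey line is the whole list of 6632 intervals, red circles are intervals overlapping the record of a Hedgehog gene and are labelled with it, and open blue diamonds are those outside the record but within 50 kb. Ptch1 stands at rank 6, its second interval and the inner Dhh interval at ranks 359 and 732, and the interval at the Dhh start, the 2 of Gli2 and those of Gli1 and Ihh lie below the median score.

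Smo, the transducer that Ptch1 restrains, had 1 interval at its start, and Sufu, which holds Gli factors inactive, had none. The Smo interval, chr6:29735661-29736687 with a score of 170.13, began 164 bp past the start (record chr6:29735497-29761366), with its midpoint 677 bp into the gene. A second interval near Smo, 6.9 kb beyond the record with a score of 131.67, covered a start of the neighbouring gene Ahcyl2.

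The Sufu record (chr19:46396896-46488804) is 91.9 kb long and no interval touched it. The nearest interval, with a score of 74.37, was 12.0 kb past its far end, and beside it lay chr19:46501586-46504489 with a score of 478.45, rank 138. Both were at an end of Trim8, a ubiquitin ligase gene, the first 325 bp from it and the second across it. A further interval with a score of 134.78, 47.2 kb upstream, covered a start of the noncoding RNA gene 2310034G01Rik. The second-highest score among the 21 intervals was thus next to Sufu, at a neighbouring gene.

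The 3 Gli genes each had an interval at an end of the record, with scores from 93.4 to 135.49, of which only that of Gli3 was above the median of the list. Gli3 (chr13:15463723-15730026), the main repressor, had the highest of these, 135.49 at chr13:15463668-15464676, across its start. The record of the noncoding RNA gene Gm6556 overlaps the same place, and the interval cannot be divided between the pair. Gli2 (chr1:118834061-119054405), the main activator, had 105.1 at chr1:119053090-119054066, almost centred on its start, with the midpoint 41 bp into the gene. A second Gli2 interval, chr1:118837142-118838099 with a score of 99.63, lay 216.0 kb downstream of the start and 3081 bp from the far end of the record. No other protein-coding gene lies within 50 kb of Gli2, so this interval has no neighbouring protein-coding gene end in reach.

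Gli1 (chr10:127329882-127341579), the factor that is also a target, had 1 interval inside its record, chr10:127340656-127341483 with a score of 93.4, which ended 96 bp short of the higher end. The strand of Gli1 was not used here. Another interval 17.8 kb from the record, with a score of 74.52, covered a start of Mars1. Ordered by best score in the record or within 1 kb, the genes ran Ptch1, Dhh (268.02), Smo, Gli3, Gli2, Gli1 and Ihh, and with no replicate it is unknown which neighbours in this order differ beyond error. The median of these 7 best scores was 135.49, against 131.83 for all 6709 protein-coding genes with an interval there, and apart from Ptch1 and Dhh, which lay above, and Ihh, which lay below, the best scores were within the quartiles of the whole list (92.3 and 183.59).

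At the 6 starts with an interval, every midpoint lay downstream of the start, by 41 bp at Gli2, 371 bp at Dhh, 449 bp at Gli3, 647 bp at Ihh, 677 bp at Smo and 1050 bp at Ptch1. Over the list, 4641 intervals came within 1 kb of a protein-coding start, with a median midpoint 216 bp downstream (quartiles 77 and 389 bp), and 83.3% of these midpoints were downstream. The midpoints at Gli3, Ihh, Smo and Ptch1 were beyond the upper quartile, those at Dhh within the quartiles and that at Gli2 below the lower quartile.

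**Figure D3:**
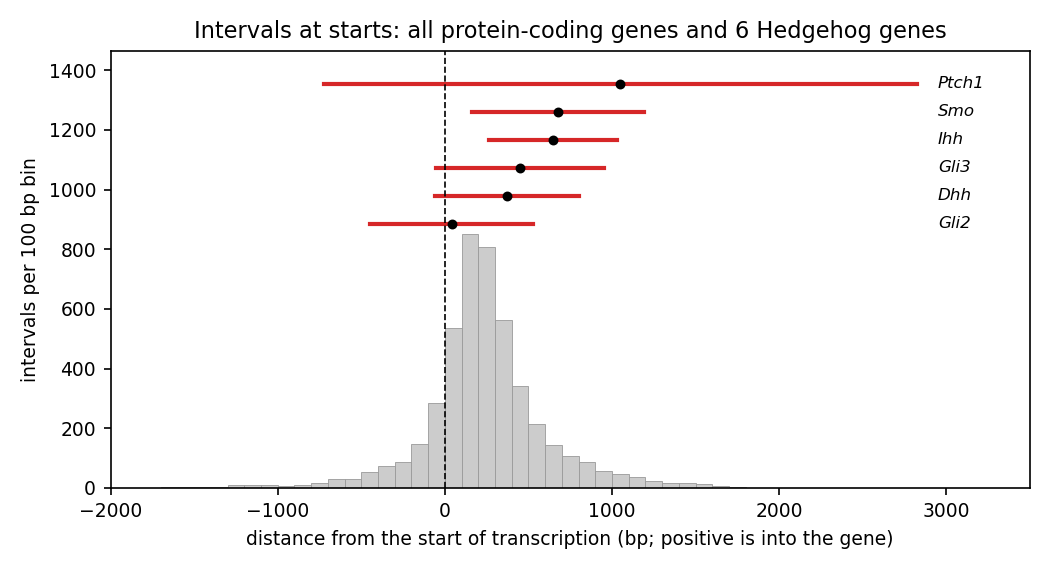
Position of intervals relative to the start of transcription. Grey bars count all 4641 intervals within 1 kb of a protein-coding start by the distance of the midpoint, in 100 bp bins, with positive distances into the gene. Red lines above them are the intervals at 6 Hedgehog genes at their true width, with the midpoint as a black dot, and all 6 midpoints lie to the right of the dashed line at the start.

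The sequence at the starts differed widely among these genes. CpG content is given as the number of CpG pairs observed over that expected from the C and G counts in the 300 bases from 250 before to 50 after the start. The ratio was 1.124 at Gli3, 1.088 at Ptch1, 0.83 at Gli2, 0.774 at Ihh, 0.506 at Sufu, 0.504 at Smo and 0.438 at Dhh. Among all protein-coding starts the median was 0.838 for the 5717 with an interval within 1 kb (quartiles 0.705 and 0.96) and 0.371 for the 15546 without (quartiles 0.169 and 0.707). Gli3 and Ptch1 thus exceeded the upper quartile of bound starts, and Dhh and Smo, although they had an interval, fell below the lower one. Smo, with an interval, and Sufu, without, had almost the same ratio, but Sufu had the lowest GC content of the 7 (56.3%, the others from 61.7 to 76.3%). Sufu also had the fewest CpG pairs in the 250 bases before the start (8, the others from 9 to 41). Over the 300 bases Sufu and Dhh were level, with 12 CpG pairs each. With a single start that had no interval, the bound and unbound starts among these 7 cannot be compared.

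Short motifs were looked for on both strands of the same 300 bases. The GC box GGGCGG, a site of Sp1-family factors, was present at 6 of the 7 starts, all but Smo, and at 46.2% of all protein-coding starts and 74.6% of those with an interval. Dhh had 4 copies, beginning 94, 78, 56 and 49 bases before the start, in the stretch printed above. The Gli site TGGGTGGTC was at none of the 7, and at 0.179% of all starts. Neither TATAAA, at 12.6% of all starts, nor CACGTG, at 7.84%, nor CCGGAAG, at 11.6%, was present at any of the 7, and CCAAT, at 38.2% of all starts, was present only at Sufu. No match of one motif holds a match of another, and a match or its absence says nothing of which factor binds.

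**Figure D4:**
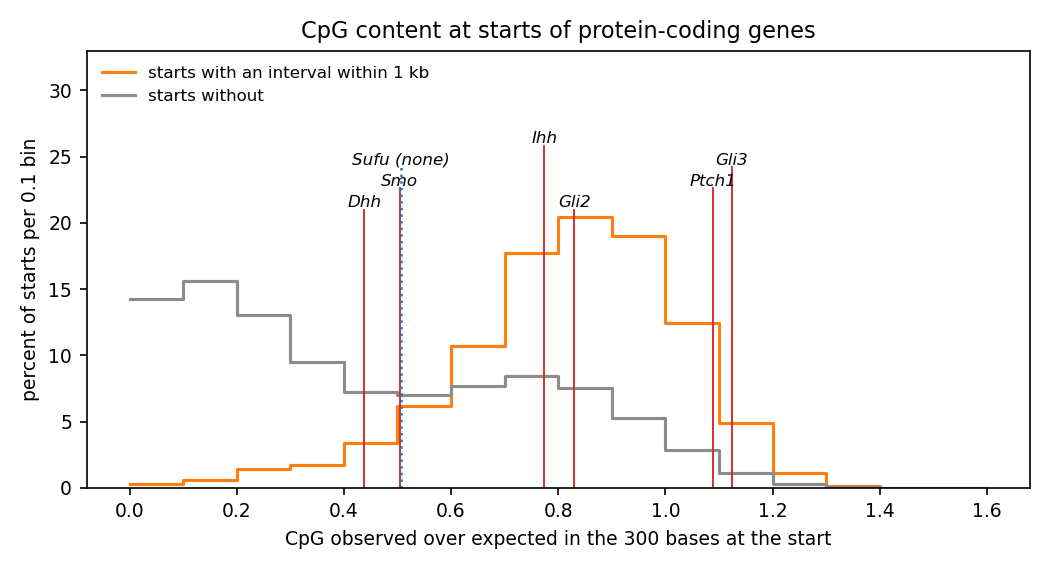
CpG observed over expected in the 300 bases at starts of protein-coding genes. The orange line gives the percent of starts with an interval within 1 kb per 0.1 bin and the grey line that of starts without, and vertical lines mark the Hedgehog genes, red with an interval and dotted blue for Sufu, which has none. Gli3 and Ptch1 lie at the right of the orange distribution, and Dhh, Smo and Sufu lie close together at lower values.

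Other genes of the pathway were looked up by role, in the record or within 1 kb. Of 50 such genes, 32 (64.0%) had an interval, beside the 30.7% of all protein-coding genes given above, and their median best score was 119.16. The best intervals of Efcab7, Tulp3, Stk36 and Ulk3, like that of Foxm1 below, also lay within 1 kb of another protein-coding gene. The share over all protein-coding genes counts shared intervals in the same way. Surface co-receptors and ligand-binding proteins had intervals at 6 of 7 genes, and target genes at 9 of 11. Kinases, ligases and other regulators of Gli proteins had them at 7 of 12, genes of the cilium and of Smo signalling at 8 of 14, and genes of ligand processing and release at 2 of 6. These roles were not tested against each other.

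Among the surface proteins, Gas1, a membrane-anchored co-receptor, had the strongest interval (score 329.95, rank 424), followed by the co-receptor Cdon (164.89). The others with an interval scored from 77.56 to 115.71. Among genes for making and releasing the ligand, Scube1, a secreted release factor, had 170.16 and Hhat, the acyltransferase that adds palmitate to the ligand, had 131.42, while Disp1, which exports the ligand, had no interval in reach. In the cilium group the scores were low, with Evc the highest at 112.18, followed by Arrb2 (96.43), Iqce (94.13) and the transport gene Ift88 (91.8), and all 8 lay below the median of the list. Regulators of Gli proteins reached 211.08 at the ubiquitin ligase gene Itch, 195.99 at Numb, 180.87 at Prkaca, the catalytic subunit gene of protein kinase A, and 180.84 at the casein kinase gene Csnk1a1, whereas Btrc, Cul3 and Spop had none in the record or within 1 kb.

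The strongest interval in these lists was at a target gene. Mycn, a proliferation gene induced by Hedgehog signals in cerebellar precursors, had 3 intervals with scores of 497.68, 134.11 and 104.32, the first at rank 119. Foxm1 had 279.11, in an interval within 1 kb of Rhno1 as well, Ccnd2, a cyclin gene, had 180.3, and Nr2f2, a nuclear receptor gene of Leydig precursors, had 3 with scores of 178.49, 153.01 and 116.94. Bcl2 had none in reach, and Foxf1 none in the record or within 1 kb. The leading score of 497.68 was below that of Ptch1, which is itself a target.

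Of 9 genes of Leydig cells, the cells whose fetal development depends on Dhh, 3 (33.3%) had an interval in the record or within 1 kb, close to the 30.7% of all protein-coding genes. Nr5a1, a regulator of steroid synthesis genes that Sertoli cells express as well, had 695.01 at chr2:38709974-38712896, rank 35. Pdgfra, a receptor gene of Leydig precursors, had 2 with scores of 272.36 and 157.02, and Tcf21, a transcription factor gene, had 100.43. The steroid synthesis genes Star, Cyp11a1, Cyp17a1 and Hsd3b1, the hormone gene Insl3 and the receptor gene Lhcgr had none.

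**Figure D5:**
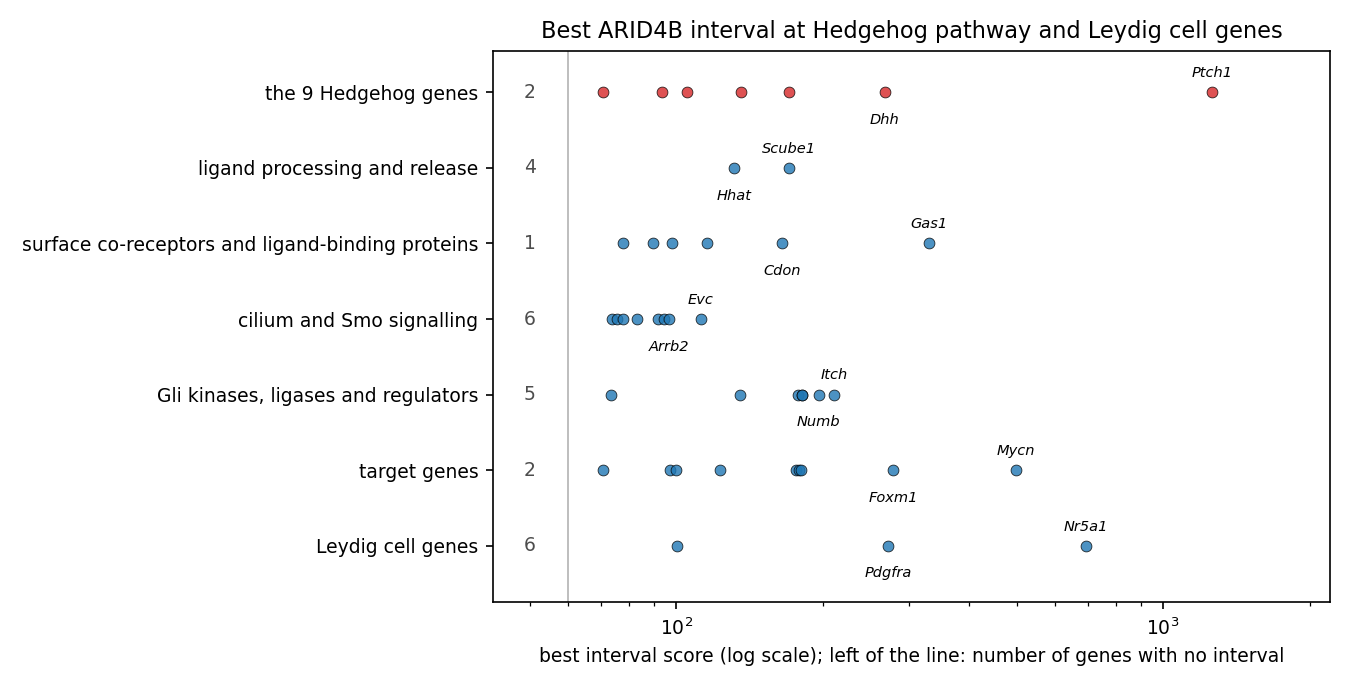
Best interval score in the record or within 1 kb, on a log scale, for the 9 Hedgehog genes (red) and for other pathway and Leydig cell genes by role (blue), 1 point per gene. Numbers left of the grey line count genes with no interval, and the best 2 genes of each row are named. Ptch1 at 1261.13 lies to the right of all other points, and the points of the cilium group reach no further than 112.18.

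Most of the intervals beyond the gene records lay at neighbouring genes. An interval lay in or within 50 kb of 8 of the 9 genes, and of 52.3% of all protein-coding genes. Of the 21 intervals, 10 overlapped a Hedgehog gene record and 11 did not. Of the 11 outside, 7 were within 1 kb of the end of another protein-coding gene, 9 counting annotated starts too. The remaining 2 were those in Kmt2d. Over the whole list 72.6% of intervals came within 1 kb of a RefSeq start, so such positions are common and not particular to these genes. The share for gene ends and starts together was not computed. The last interval inside the reach was 49.8 kb from Dhh with a score of 95.03, and the first outside it was 54.4 kb from Dhh with a score of 196.71.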

How the data were processed

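ARID4B ChIP and input DNA from pooled testes were sequenced. The submitters' processing notes name BWA, MACS and build mm9, and no version or parameter is given. The authors deposited 1 list of intervals, each with a score. Its name calls the score a p-value, but all values exceed 1, so it was used only within the list, to rank and describe. The list is named for mm10: 72.6% of intervals came within 1 kb of a RefSeq start on GRCm38, the same assembly, and 5.43 or 5.62% after a shift of 5 kb either way, so positions, counted from 1, were read as GRCm38. Input values and aligned reads were not analysed here.

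Records, starts (1 for each Hedgehog gene that has any) and sequences came from RefSeq GRCm38.p6, and every listed symbol matched. An overlap of 1 bp sufficed. Shares over protein-coding genes were computed with Python 3.11.15, numpy 2.4.6, pandas 2.3.3 and scipy 1.17.1, and plots with matplotlib 3.10.9. On simulated data all 200 intervals planted inside gene records were recovered, which checks only the lookup by position and not the calling of intervals. The 9 genes and the lists were chosen with earlier results of these data known. Named were the 9 genes, genes nearest to their intervals, the leading members (at most 4) of each list and the 3 genes most like Ptch1. Snai1 and the list members that had none were picked for naming once values had been seen. Alternatives were reaches of 1, 10 and 100 kb, midpoints, scores above the median, and outer gene ends only. A further Leydig cell gene was looked up and is not reported here.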

Additional observations from a re-analysis of the deposited data

How the results depend on the processing

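The 21 intervals fell to 12 with a reach of 10 kb, 10 with 1 kb and 9 when only scores above the median were kept, and were 20 by midpoints and 27 with 100 kb. Of the 9 genes 8 had an interval within 50 kb, 8 by midpoints or within 100 kb, and 7 within 10 kb, within 1 kb or when the nearest protein-coding gene end had to be their own. Above the median score, 5 of the 9 had one within 50 kb and 4 (Ptch1, Dhh, Smo and Gli3) within 1 kb. The 1, 10 and 100 kb counts of genes were added after the data were examined. Of the 50 other pathway genes, 32 became 15 above the median score, 29 with outer ends only, 32 by midpoints and 42 within 50 kb. The share of all protein-coding genes moved alongside, from 30.7% to 36.6% with 10 kb, 52.3% with 50 kb, 62.4% with 100 kb, 27.1% with outer ends only and 16.7% above the median score, or 34.0% above it within 50 kb, and was 30.2% by midpoints. The weaker calls at Gli1, Gli2, Ihh and the Dhh start score below the median, so their loss at that cut follows from their scores. How they would fare under another calling threshold was not tested. Dhh passed the median within 1 kb only through its inner interval, with a score of 268.02. No paired analysis was possible because there was 1 ChIP library, and no replicate could be left out. Library depth, which limits the weakest interval that could be listed, is unknown.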

Other observations

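Runs of adjacent intervals lay at 3 pathway genes outside the 9. Of the 50 pathway genes, 3 had 2 or more intervals in the record or within 1 kb, beside 3.28% of all protein-coding genes. A count this small cannot be read as a difference from that share. At Mycn the intervals lay at chr12:12936888-12937954, chr12:12939324-12940620 and chr12:12940747-12942028. At Nr2f2 they lay at chr7:70357570-70359359, chr7:70359556-70360516 and chr7:70361262-70362543. Snai1, the gene of an epithelial-mesenchymal transition factor, had the third such run, chr2:167537442-167538538 and chr2:167538552-167539590, with scores of 176.03 and 109.76. The Snai1 pair nearly touch, and whether any of these runs are 1 region split in calling was not tested.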
